A study of Mus musculus with 12 samples.

Results

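The barcodes described here are droplets in which hemoglobin messages made up nearly all of the RNA, a population of reticulocytes and young red cells in the livers of neonatal mice. They were chosen by the measured share of 4 adult globin genes, Hba-a1, Hba-a2, Hbb-bs and Hbb-bt: a barcode was a member when these 4 genes made up at least 80% of its unique molecular identifiers (UMIs, 1 per captured RNA molecule). The rule was applied to barcodes of 500 to 50000 UMIs with a mitochondrial share of 20% or less, and 25758 of the 202557 kept barcodes (12.7%) were members. A barcode at 80% globin cannot hold more than 20% mitochondrial UMIs, so that limit bears only on the other barcodes.

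The livers came from C57BL6/J pups of postnatal day 11, with 1 droplet library (10x Genomics, 3′ end counting) from each of 12 separate mice. The 6 anemic pups had lost 20 µL of blood per g of body weight on each of postnatal days 2, 4, 6, 8 and 10, aimed at bringing the hematocrit from 45–60% to 20–24%, and were collected 24 hours after the last bleed. The 6 control pups were naive to bleeding and received a daily needle stick that drew no blood. No mouse carried a transgene, no sort for erythroid cells or lysis of red cells was described, and the livers were washed but not described as perfused, so red cells of the blood in the vessels and erythroid cells of the liver tissue cannot be told apart. By their labels 4 control and 2 anemic pups were female, so the groups differ in sex. The study's methods state equal numbers, which the labels give over both groups together but not within each.

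Red cells form from erythroblasts that fill with hemoglobin, stop dividing and expel the nucleus. The cell left behind, the reticulocyte, cannot make new messages. It lives on stored RNA, clears its mitochondria by mitophagy and its surplus proteins through ubiquitin and the proteasome, and loses its transferrin receptor before it becomes a mature red cell. The mouse liver makes red cells before birth and for a short time after it, and blood loss raises erythropoietin, the hormone that drives the making of red cells.

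The globin share split the barcodes into separated groups. Of the kept barcodes, 170655 had under 20% globin, 4528 (2.24%) had 20 to 75%, 1616 (0.798%) had 75 to 80%, 6203 had 80 to 85%, 14571 had 85 to 90% and 4984 had over 90%. The limit at 80% lay on the lower flank of the upper group: in each mouse the member nearest to it had 80.0 to 80.2% globin and the closest non-member 79.9 to 80.0%. The median member of a mouse had 85.7 to 87.7% globin in the controls and 86.8 to 88.7% in the anemic mice. Since the globin share was what the rule used, these values are a description without a test.

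**Figure D1:**
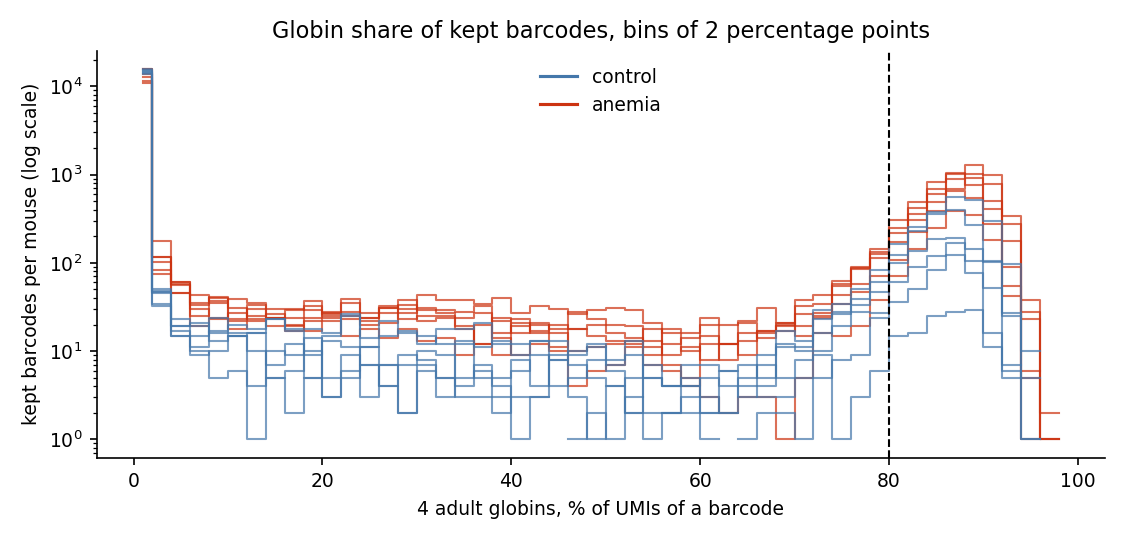
Number of kept barcodes of each mouse (vertical axis, log scale) by the percentage of a barcode's UMIs from the 4 adult globin genes (horizontal axis), with 1 line per mouse in the color of its group and the 80% limit as a dashed line. Each mouse has many barcodes at low globin, few between 20 and 75%, and a second peak that lies mostly at 85 to 90%.

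The libraries held 46252146 to 65960679 UMIs in the controls and 52021617 to 74545930 in the anemic mice, and members carried 0.283 to 3.77% and 2.96 to 13.3% of the kept UMIs. The members of control 3, 129 in number, gave the least material. The members of anemia 2 and anemia 3 stood apart from those of the other anemic mice in hepatocyte, mitochondrial and interferon-response RNA, as given below, and values without them are printed where a call changes. Only 83 (0.323%) of the 25675 distinct member barcodes occurred in more than 1 library, with at most 8 shared by any pair.

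The markers bore out an erythroid identity. Alas2, the erythroid enzyme of the first step of heme synthesis, had a UMI in 82.2 to 98.0% of a mouse's members, against 1.20 to 7.23% of B barcodes, the reference class that should lack it. The B barcodes are 26976 barcodes with at least 5 UMIs, and at least 1% of their non-globin UMIs, from 8 B cell genes, and their median depth was 1266 to 1564 UMIs in the controls and 1322 to 1728 in the anemic mice. Gpx1, a peroxidase that removes hydrogen peroxide and is abundant in red cells, had a UMI in 85.7 to 99.5% of members and 67.1 to 78.8% of B barcodes. The ranges of members and B barcodes did not overlap for either gene. Mature red cells without RNA leave no barcode and are not counted here.

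Signs of a nucleus were faint, also relative to the smaller RNA content of members, which held 129 to 226 non-globin UMIs per barcode on average against 1660 to 2210 in B barcodes. Malat1, a nuclear RNA that nearly every nucleated cell holds, had a UMI in 37.1 to 65.9% of members and in 99.9 to 100% of B barcodes, and took 0.345 to 0.647% against 4.02 to 5.55% of the non-globin UMIs. Top2a, the topoisomerase of dividing cells, had a UMI in 0.143 to 1.02% of members and in 11.8 to 22.2% of B barcodes, and took 0.000845 to 0.00613% against 0.0533 to 0.0837% of the non-globin UMIs. Tfrc, the transferrin receptor that takes up iron, had one in 1.18 to 4.14% of members and in 14.96 to 22.2% of B barcodes. With every barcode thinned to 500 UMIs, globins included, these were 0.322 to 1.55% and 4.49 to 6.19%. The Tfrc share of the non-globin UMIs overlapped (0.00863 to 0.0208% against 0.0117 to 0.0138%), and the reason for the gap in detection was not tested. A member held RNA of few genes, with a per-mouse median of 85 to 103 genes in the controls and 92 to 122 in the anemic mice, and the largest member had 11700 UMIs.

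Within the globin pool the β chain messages outweighed the α chain messages in all 12 mice. Hbb-bs, the main adult β-globin, made up 59.2 to 60.2% of the adult globin UMIs in controls and 59.9 to 61.4% in anemic mice, and Hbb-bt, its neighbour on the same chromosome, 3.36 to 3.66% and 3.51 to 4.08%. Hba-a1 made up 21.0 to 21.9% and 20.5 to 21.6%, and Hba-a2 15.2 to 15.5% and 14.5 to 14.9%. In GRCm38 with GENCODE M21 annotation the α genes lie on the plus strand of chromosome 11 (Hba-a1 at 32283511-32284465, Hba-a2 at 32296489-32297298) and the β genes on the minus strand of chromosome 7 (Hbb-bs at 103826534-103828096, Hbb-bt at 103812524-103813996). The coding sequences of the α pair differ at 1 of 429 bases and those of the β pair at 1 of 444. The 3′ ends outside the coding sequence, where such libraries are read, were not compared. How well reads divide within a pair is therefore not known, and the sum of each pair is the firmer value.

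Embryonic globins were at the edge of detection. Among all 25758 members Hba-x, the embryonic ζ chain, had 1 UMI, Hbb-bh2 had 2 UMIs, and Hbb-y, the embryonic ε chain, had 27 UMIs, 6 of them in controls. Hbb-bh1, an embryonic β-like chain, had 27 UMIs in the anemic mice, 24 of them in 2 members of anemia 4, and 0 in the 5787 control members, which allows a share of up to 0.0518% of control members with a UMI. That limit and the other intervals by count cover counting error alone. Hbq1b, the θ-globin, was low but steady, at 66.3 to 115 UMIs per 1000000 globin UMIs in controls and 91.0 to 129 in anemic mice, and Hbq1a, its second copy, was at 10.1 to 33.8 and 8.35 to 14.8.

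Outside the globins, members carried 126 to 155 UMIs per barcode (medians of the control mice) or 145 to 206 (anemic mice), and a few erythroid messages held much of them. In 3′ end counts, where a message counts once whatever its length, Gpx1 led with 8.74% of the non-globin UMIs over the 12 mice (8.33 ± 1.23% in controls and 9.15 ± 0.336% in anemic mice, SD, n = 6 each). It was followed by Ubb (polyubiquitin, 2.48%), Alas2 (2.24%) and Sec61g (a subunit of the protein channel of the endoplasmic reticulum, 2.11%). Others were Fth1, a ferritin chain that stores iron (1.30%), Mkrn1, a ubiquitin ligase (1.26%), Pabpc1, a protein that binds poly(A) tails (1.22%), and Gm42418, a gene model that overlaps ribosomal RNA (1.22%). Ftl1, the other ferritin chain, Ghitm, a protein of the inner mitochondrial membrane, Cd24a, a surface glycoprotein, Prdx2, a red cell peroxiredoxin, and Alb, the albumin of hepatocytes, held 1.07, 1.04, 0.929, 0.817 and 0.789%. The 15 most abundant genes, not all of which are reported here, held 26.0 to 29.3% of the non-globin UMIs in controls and 28.0 to 32.2% in anemic mice. In B barcodes Alas2 took 0.00725%, far below its share in members.

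**Figure D2:**
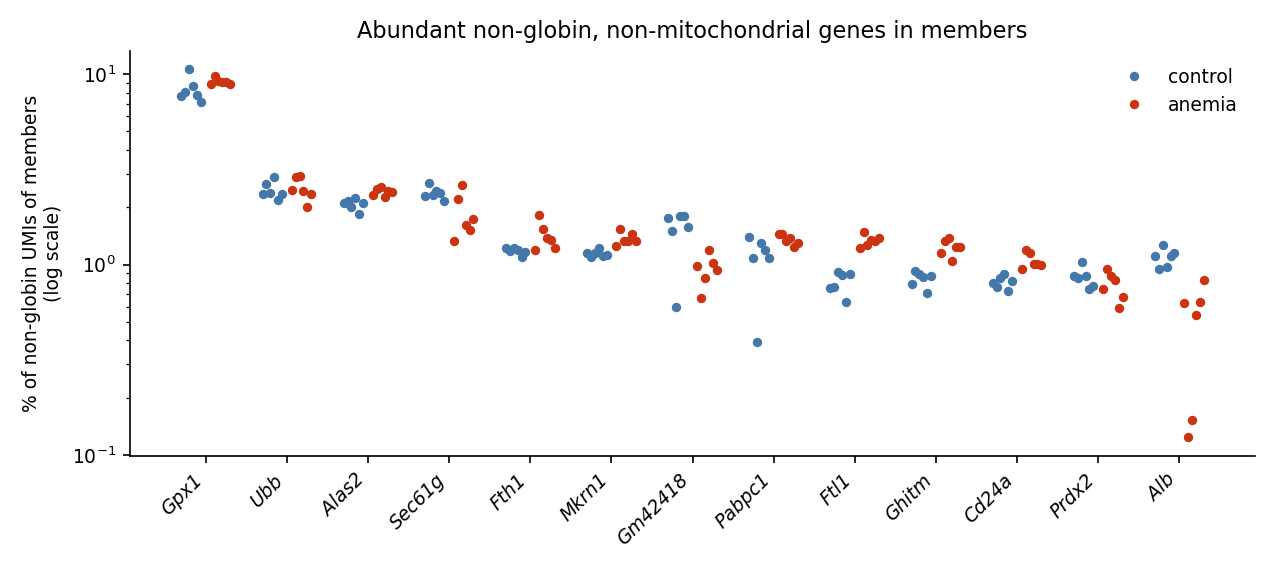
Percentage of the members' non-globin UMIs (vertical axis, log scale) held by abundant non-globin, non-mitochondrial genes (horizontal axis), with 1 point per mouse in the color of its group. Gpx1 stands above the rest with 8.74% over the 12 mice, and Alb, a hepatocyte gene, is the lowest of those shown with 0.789%.

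Globin share and content moved together among the members themselves. In the 11 mice with at least 20 members in each range, members with 90 to 95% globin had more UMIs than members with 80 to 85% (median over mice 1634 against 979, higher in 11 of 11 mice), and a lower mitochondrial share of their non-globin UMIs (8.70 against 14.1%, lower in 11 of 11). Alas2 held 3.11 against 1.78% and Ubb 3.02 against 2.14% of the non-globin UMIs, each higher in 11 of 11 mice. Gpx1 differed little, at 8.27 against 7.77% and higher in 6 of 11, and Malat1 was lower in 9 of 11 (0.379 against 0.513%). These values come from the rule's own measure and are given without a test.

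Members were next set against lower-globin erythroid barcodes, kept barcodes with under 80% globin that had at least 5 UMIs, and at least 1% of their non-globin UMIs, from 8 erythroid genes. There were 1411 of these, 27 to 67 in a control mouse and 86 to 341 in an anemic mouse. Members needed no UMIs of these 8 genes, of which they held 1.77 to 4.29 per barcode on average in a mouse. The classes were thus picked by unlike criteria, and barcodes under 80% globin that failed the filter were not counted as erythroid. Non-globin counts were summed per mouse and class and compared in edgeR with the mouse as a block, leaving out the 8 genes that chose the class. Of 3507 genes tested, 1058 (30.2%) were higher and 1696 (48.4%) lower in members. The filter used the mean over both classes, so some lower calls rest on genes with few UMIs in members. The balance of the calls depended on scaling and on single mice: without TMM factors 762 were higher and 1997 lower, and leaving out control 3, anemia 4, anemia 5 or anemia 6 gave more higher than lower calls (1595 and 1346, 1298 and 1047, 1403 and 1241, 1448 and 1231). Values below are UMIs per 1000000 of the tested genes (CPM), n = 12 mice, with the adjusted p of edgeR.

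Proliferation and nuclear genes were lower in members. Of the 23 tested genes for nuclear RNA and the cell cycle, 22 were lower and 0 higher in members, beside 48.4% and 30.2% over all genes tested. Only 12 genes of this list had a mean of at least 5 UMIs in members, so the others passed the filter through the lower-globin class. Hist1h2ap, a replication-dependent histone H2A, was at 7.28 ± 7.67 CPM in members and 1432 ± 490 in the lower-globin class (log2 fold -7.34 ± 0.23, SE). It had 4 UMIs in all control and 20 in all anemic members. Top2a was at 44.9 ± 19.5 against 1207 ± 337 CPM (log2 fold -4.89 ± 0.19, adjusted p = 1.7e-145). Fbxo5, an inhibitor of the anaphase-promoting complex, had a log2 fold of -6.05 ± 0.27, with 3 UMIs in all control and 16 in all anemic members. Hist1h2ap and Fbxo5 passed the filter on low counts only through the lower-globin class, so their folds are descriptions without a p. Hist1h2ap, Top2a and Fbxo5 were each lower in 12 of 12 mice. The exception was Ube2c, the ubiquitin-conjugating enzyme of the anaphase-promoting complex, at 1593 ± 269 against 1354 ± 349 CPM (log2 fold 0.25 ± 0.13, adjusted p = 0.062), whose direction turned without TMM scaling (-0.18).

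Mitophagy, ubiquitin and glycolysis genes were more often higher than lower with TMM scaling, beside 30.2% higher and 48.4% lower over all genes tested. Among the mitophagy and autophagy genes 12 of 19 were higher and 5 lower in members. Gabarapl2, an ATG8 protein of the autophagosome membrane, was at 10901 ± 3035 against 1565 ± 857 CPM (log2 fold 2.88 ± 0.12, adjusted p = 1.1e-130), and Bnip3l, the receptor that marks mitochondria for removal in reticulocytes, at 7325 ± 946 against 1094 ± 424 (log2 fold 2.77 ± 0.12, adjusted p = 2.2e-114). Ubiquitin and remodelling genes were higher in 12 and lower in 8 of 27, with Ube2l6, a conjugating enzyme of ubiquitin and ISG15, among the higher (log2 fold 2.70 ± 0.12, adjusted p = 4.1e-109). Glycolysis genes were higher in 9 and lower in 1 of 10, among them Bpgm, which makes the 2,3-bisphosphoglycerate that loosens oxygen from hemoglobin (log2 fold 2.75 ± 0.11, adjusted p = 1.4e-124). Alas2 stood at 33960 ± 8059 against 5254 ± 2152 CPM (log2 fold 2.75 ± 0.10, adjusted p = 2.7e-151). Ghitm, with a log2 fold of 2.78 ± 0.11, and Ccndbp1, a cyclin D-binding protein, with 2.96 ± 0.14, were also higher in 12 of 12 mice.

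Heme, membrane and control genes divided, beside 30.2% higher and 48.4% lower over all 3507 genes tested. Counts near those shares are not read as traits of a list. Heme synthesis genes were higher in 7 and lower in 7 of 16, and Cpox, the coproporphyrinogen oxidase of a late step, was lower in 12 of 12 mice (768 ± 416 against 2246 ± 686 CPM, log2 fold -1.64 ± 0.13, adjusted p = 1.2e-35), opposite to Alas2. Iron genes were higher in 6 and lower in 4 of 12, with Tfrc at 233 ± 73.5 against 2121 ± 499 CPM (log2 fold -3.20 ± 0.14, adjusted p = 8.2e-107). Membrane and cytoskeleton genes were lower in 16 and higher in 4 of 21, erythroid transcription factors lower in 12 and higher in 3 of 15, erythropoietin-response genes lower in 6 and higher in 1 of 7, and stress-response genes lower in 10 and higher in 2 of 12. Only 12 of the transcription factors and 10 stress-response genes had a mean of at least 5 UMIs in members. The others passed the filter through the lower-globin class, so their calls are descriptions. Foxo3, a transcription factor of late erythroid maturation, was lower in 11 of 12 mice (log2 fold -1.56 ± 0.15, adjusted p = 9.4e-24). Antioxidant genes were higher in 10 and lower in 6 of 22, and translation genes higher in 5 and lower in 6 of 20. Interferon-response genes were higher in 14 and lower in 0 of 21, and hepatocyte genes in 25 and 0 of 25, the second a list whose RNA is not made by red cells. Other lists of that kind were likewise higher in members: neutrophils in 6 of 6, endothelial cells in 5 of 6, stellate cells in 6 of 7, macrophages in 6 of 11 and monocytes in 2 of 2 genes, with 1 stellate cell gene lower. The part of such RNA in the values of the other lists was not tested.

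Hepatocyte messages were the main RNA of another cell type in the members. The 25 hepatocyte genes held 6.07 to 7.67% of the non-globin UMIs in controls (median 7.21%) and 0.937 to 4.43% in anemic mice (median 3.49%), with no overlap between the groups and none of the 25 genes at 0. In UMIs per barcode that was 9.11 to 12.2 in control and 1.80 to 8.54 in anemic members, below the 12.7 to 16.9 and 2.49 to 12.9 of B barcodes from the same mice. Anemia 2 and anemia 3 had the least, 0.937 and 1.19%. The lists of B, NK and T, dendritic, endothelial, macrophage, monocyte, neutrophil, platelet and stellate cell genes each held at most 0.141% of the members' non-globin UMIs in any mouse. Members with at least 5 UMIs of such a list numbered 51 for macrophages, 12 for stellate cells, 4 each for neutrophils and endothelial cells, and 0 for B cells.

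**Figure D3:**
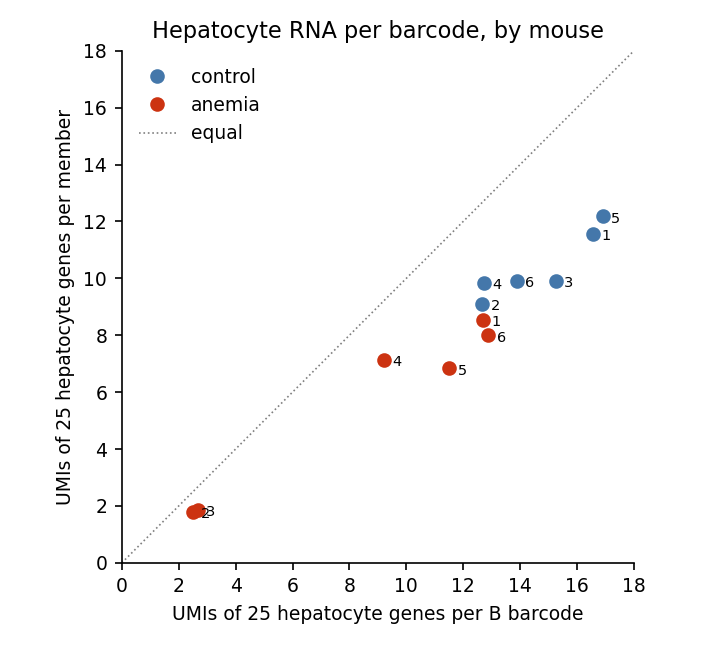
UMIs of 25 hepatocyte genes per member (vertical axis) against the same per B barcode (horizontal axis), with 1 numbered point per mouse in the color of its group and a dotted line at equal values. All 12 mice lie below the line, control members hold 9.11 to 12.2 hepatocyte UMIs, and anemia 2 and anemia 3 sit lowest.

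The question of the study's design was how repeated blood loss alters the cells of the neonatal liver, and members were a larger share of the barcodes in anemic livers. They made up 0.926, 4.55 and 12.4% of kept barcodes in the lowest, median and highest control and 8.06, 19.5 and 27.7% in the lowest, median and highest anemic mouse. All anemic mice but anemia 2 lay above every control, and anemia 2 lay below controls 2 and 6. The means were 5.72 ± 4.20% and 18.7 ± 6.63% (SD, n = 6 each), a ratio of 3.28 (two-sided exact Mann–Whitney p = 0.00866, adjusted p = 0.0289 over the 8 per-mouse measures tested). In numbers, 777, 1569, 129, 609, 491 and 2212 members were found in controls 1 to 6 and 2484, 1425, 4257, 3476, 4914 and 3415 in anemic mice 1 to 6, so 77.5% of members came from anemic mice. A share of barcodes depends on how many other cells were captured, and absolute numbers per liver were not analysed here. The study pelleted the dissociated cells by a low-speed spin, and the part of that step in the share of members was not tested.

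**Figure D4:**
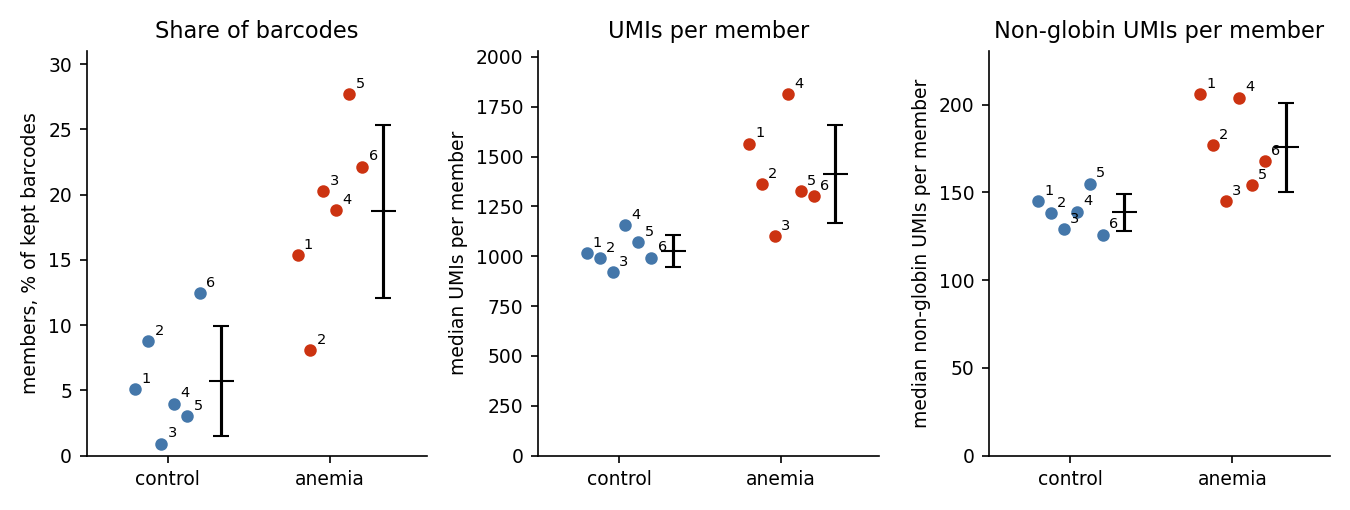
Members as a percentage of kept barcodes, and median UMIs and median non-globin UMIs per member (vertical axes) in control and anemic mice, with 1 numbered point per mouse and the mean and SD of each group of 6 beside them. Anemic mice average 18.7% members against 5.72% in controls, and anemia 2 lies within the control range in the first panel.

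The proportion of members among members plus lower-globin erythroid barcodes did not show a difference. It was 82.7, 93.2 and 97.2% in the lowest, median and highest control and 91.1, 95.01 and 98.0% in the lowest, median and highest anemic mouse (exact Mann–Whitney adjusted p = 0.818). The anemic mice overlapped the controls, and the lower-globin barcodes were also more numerous in anemic mice, 1107 against 304. The lower-globin class had to pass a marker filter that members did not, so this proportion is not a share of all erythroid cells.

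The median member of a mouse had more UMIs in the anemic group. UMIs per member (the median of a mouse's members) were 921, 1004 and 1155 in the lowest, median and highest control and 1103, 1344 and 1814 in the lowest, median and highest anemic mouse, or 1024 ± 80.2 against 1412 ± 246 (SD, n = 6 each, ratio 1.38, exact Mann–Whitney p = 0.00433, adjusted p = 0.0289). Non-globin UMIs per member were 126, 138.5 and 155 against 145, 172.5 and 206, or 139 ± 10.6 against 176 ± 25.3 (p = 0.0108 by the same exact test, adjusted p = 0.0289). Both ranges overlapped at their ends. Among members of at least 90% globin neither call held (differences of 206.5 and 16.3 UMIs, adjusted p = 0.495 for both), and the call on non-globin UMIs was lost without control 2 (adjusted p = 0.0577) or without anemia 2 (adjusted p = 0.052). The B barcodes' median depth, 1266 to 1564 UMIs in controls and 1322 to 1728 in anemic mice, is the level of other cells in the same libraries, and its part in the difference was not tested.

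The α share of the globin UMIs was slightly lower in anemic mice. It was 36.3, 36.7 and 37.2% in the lowest, median and highest control and 35.0, 35.8 and 36.4% in the anemic mice, a difference of -0.946 percentage points (exact Mann–Whitney p = 0.0152, adjusted p = 0.0303). Only 1 anemic mouse lay within the range of the controls. The call was lost without control 2, without anemia 2 or without anemia 5 (adjusted p = 0.0606 each). Hba-a1 made up 57.7, 58.2 and 58.9% of the α UMIs in the lowest, median and highest control against 58.3, 58.9 and 59.3% (adjusted p = 0.0416, overlapping ranges), a call that leaving out any of 7 single mice or anemia 2 and 3 together (adjusted p = 0.152) ended. Hbb-bs made up 94.2 to 94.7% of the β UMIs in controls and 93.6 to 94.5% in anemic mice (adjusted p = 0.554), with overlapping ranges.

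Mitochondrial messages took a larger share in members than in the lower-globin erythroid barcodes of the same mouse in 12 of 12 mice. In members they held 9.16, 10.5 and 12.7% of the non-globin UMIs in the lowest, median and highest control and 6.05, 12.8 and 14.9% in the anemic mice (exact Mann–Whitney adjusted p = 0.554), whereas the lower-globin class held 4.76 to 8.40%. The anemic range enclosed that of the controls, with anemia 2 and 3 at the bottom (6.05 and 6.88%).

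Gene levels in the members' non-globin RNA were then compared between anemic and control mice, with counts summed per mouse and fitted in edgeR. Of 3929 genes tested, 256 (6.52%) were higher and 103 (2.62%) lower in anemic mice at an adjusted p under 0.05. In 221 genes (5.62%) all anemic mice lay above all controls, and in 47 (1.2%) below. The share of higher and lower calls depended on scaling and on the filter on low counts, with 103 higher and 104 lower calls at a mean of at least 50 UMIs and 570 and 53 with no filter. Control members, being fewer, had a mean under 5 UMIs for 1979 of the genes tested, which passed the filter only through the anemic mice, and 48 of these were called higher and 4 lower. Of the genes named below Mt2, Apoa4, Lcn2, Uba1, Trafd1, Cyb5r1, Trib3, Slc23a1 and Serpina3k are such genes, with 6, 8, 5, 21, 23, 15, 14, 20 and 17 UMIs in all control members, and their folds are given as descriptions without a p. Single mice mattered too: 45 genes were lower without control 6 and 163 without anemia 5. The hepatocyte RNA given above moved with the groups, and its part in these calls was not tested. With TMM scaling over all tested genes the median log2 fold was -0.0031. Without TMM factors it shifted by -0.26 and gave 139 higher and 265 lower calls. When scaled on the 200 red cell genes, those with at least as many UMIs per member as per B barcode, it shifted by -0.41 and gave 85 higher and 325 lower calls. A total of 85 genes were called higher and 103 lower under all 3 scalings. With TMM scaling 61 of the 200 red cell genes were called higher and 2 lower, with a median log2 fold of 0.49. Some red cell genes met their definition mainly through the anemic mice (Mt1 in 1 control and 4 anemic mice, for example), so that set is not independent of the comparison. CPM and folds below use TMM scaling, and the text says which calls held under all 3. Control 3, with 13784 UMIs of tested genes against 235774 to 648117 in anemic mice, made 1 UMI worth 45.2 CPM, so its low values are coarse, and its TMM factor of 1.6 (0.848 to 1.13 in the other mice) lowers all its CPM by that ratio.

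**Figure D5:**
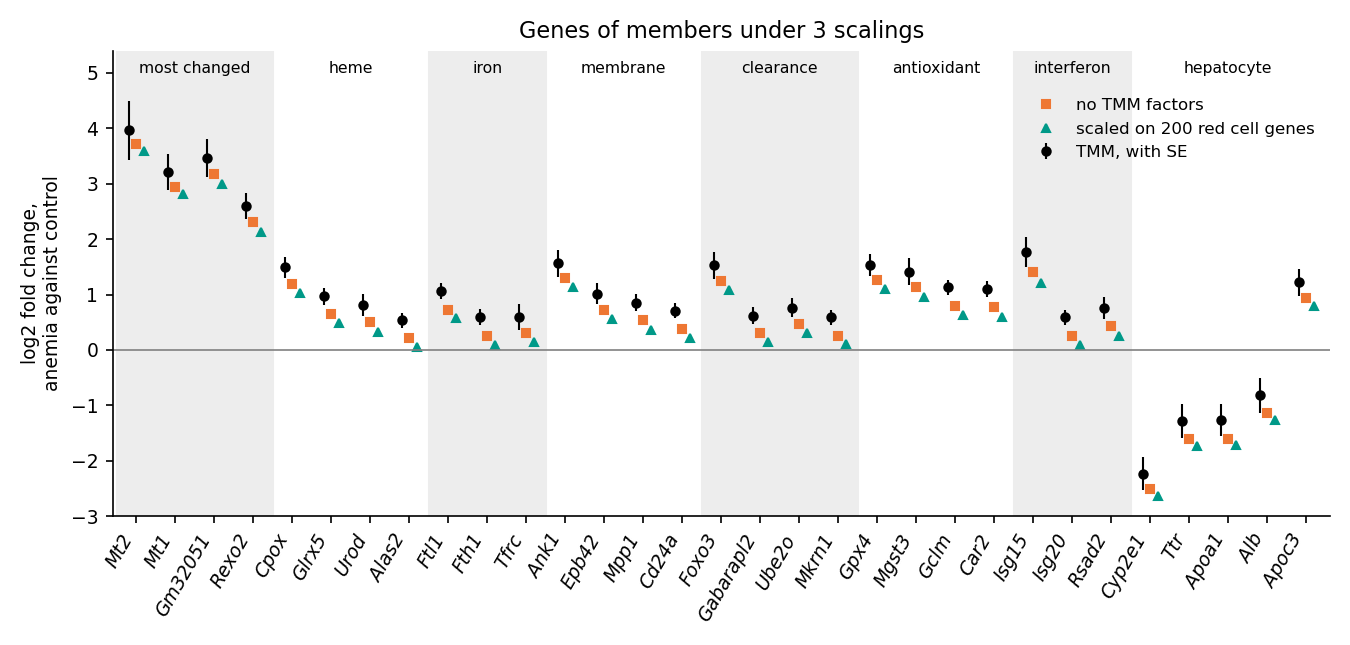
Log2 fold change of genes in members, anemic against control mice (vertical axis), for genes grouped by role (horizontal axis) under TMM scaling (circles, with the SE of edgeR), without TMM factors (squares) and scaled on 200 red cell genes (triangles). The last scaling lies lower by about 0.41, so small increases such as that of Alas2 (0.53 and 0.05) shrink while those of Gm32051, Rexo2 and Cpox keep their direction.

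Rexo2, Gm32051 and Ssbp2 rose under all 3 scalings. Rexo2, an RNA exonuclease of mitochondria, had 65.3, 94.5 and 136 CPM in the lowest, median and highest control and 387, 614 and 760 in the anemic mice, without overlap (log2 fold 2.60 ± 0.24, adjusted p = 4.5e-07). Gm32051, a gene model on the plus strand of chromosome 5 at 105409367-105415670 (GRCm38), had 0, 40.7 and 118 CPM against 425, 746 and 999, again without overlap (log2 fold 3.46 ± 0.34, adjusted p = 8.3e-07). Gm32051 had 51 UMIs in all control members and 1876 in all anemic members, and at most 0.00532 UMIs per B barcode in any mouse. In lower-globin erythroid barcodes both were also higher per barcode, from few control UMIs. There Gm32051 stood at 0 to 0.037 UMIs per barcode in controls and 0.101 to 0.238 in anemic mice, and Rexo2 at 0 to 0.0566 and 0.152 to 0.342. The control values rest on 3 UMIs of Gm32051 and 12 of Rexo2, against 190 and 260 in anemic mice. Values per barcode are not adjusted for depth, and these barcodes had medians of 822 to 1168 UMIs in controls and 1199 to 2193 in anemic mice. Ssbp2, a single-stranded DNA-binding protein, rose by a log2 fold of 2.57 ± 0.31 (adjusted p = 1.1e-05). It had only 30 UMIs in all control members and 648 in all anemic members. From the low control counts given above, the log2 folds were 2.35 ± 0.30 for Uba1, the enzyme that activates ubiquitin, 2.23 ± 0.35 for Cyb5r1, a cytochrome b5 reductase, and 2.34 ± 0.46 for Trafd1, a zinc finger protein of the interferon response. Ssbp2, Uba1 and Trafd1 had fewer UMIs per member than per B barcode in all 12 mice, whereas Rexo2 exceeded B barcodes in 0 control and 5 anemic mice and Cyb5r1 in 0 and 4.

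Of the metallothionein genes, which encode small proteins that bind zinc and copper, Mt1 rose. Mt1 had 68.8, 104 and 226 CPM in the lowest, median and highest control and 540, 1252 and 2183 in the anemic mice (log2 fold 3.21 ± 0.32, adjusted p = 8.3e-07), with no overlap and under all 3 scalings. Mt2 had 0, 7.27 and 45.2 against 54.9, 131 and 216 CPM (log2 fold 3.97 ± 0.53), from 6 UMIs in control and 361 in anemic members. B barcodes of the same mice moved likewise: Mt1 stood at 0.0225 to 0.0389 UMIs per B barcode in controls and 0.0745 to 0.263 in anemic mice, against 0.0102 to 0.0322 and 0.0849 to 0.259 per member. The part of RNA from outside the members in the Mt1 and Mt2 values was not tested. In GRCm38 the genes lie side by side on the plus strand of chromosome 8, Mt2 at 94172664-94173568 and Mt1 at 94179082-94180327.

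Among heme synthesis genes 7 of the 16 tested rose and 0 fell, with a median log2 fold of 0.51, and scaled on red cell genes 2 rose with a median of 0.029. Of these 16 genes 8 are red cell genes, and of all 200 red cell genes 61 were called higher with a median of 0.49. Cpox had 220, 357 and 434 CPM in the lowest, median and highest control and 669, 964 and 1058 in the anemic mice, without overlap (log2 fold 1.49 ± 0.19, adjusted p = 1.8e-05). Glrx5, a glutaredoxin that hands on iron-sulfur clusters, rose from 1245 ± 245 to 2474 ± 379 CPM (log2 fold 0.97 ± 0.16, adjusted p = 0.00027), and these 2 genes held under all 3 scalings. Ppox and Urod, the protoporphyrinogen oxidase and uroporphyrinogen decarboxylase, had log2 folds of 1.46 ± 0.33 (adjusted p = 0.0062) and 0.81 ± 0.20 (adjusted p = 0.011), and on red cell genes of 0.99 (adjusted p = 0.064) and 0.32 (adjusted p = 0.22). Ppox had only 35 UMIs in all control members. Alas2, the gene that helped name the population, had 15055, 24587 and 27252 CPM against 30700, 34176 and 35239 (log2 fold 0.53 ± 0.14, adjusted p = 0.015), but on red cell genes its log2 fold was 0.05 (adjusted p = 0.70).

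Of the 12 iron genes tested 2 rose, both ferritins, beside 6.52% called higher over all 3929 genes tested. Ftl1 had 6872, 8995 and 10799 CPM in the lowest, median and highest control and 16355, 19053 and 20179 in the anemic mice (log2 fold 1.06 ± 0.14, adjusted p = 1.8e-05), without overlap and under all 3 scalings. Fth1 had a log2 fold of 0.59 ± 0.14 (adjusted p = 0.0088) that fell to 0.09 (adjusted p = 0.49) on red cell genes. Tfrc stood at 158 ± 48.3 against 230 ± 43.1 CPM (log2 fold 0.59 ± 0.23, adjusted p = 0.11).

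Membrane and cytoskeleton genes were higher in 7 and lower in 0 of 25, with a median log2 fold of 0.63 (0.13 on red cell genes), and 4 of them held under all 3 scalings. Of these 25 genes 19 are red cell genes, and of all 200 red cell genes 61 were called higher with a median of 0.49. Ank1, the ankyrin that ties the membrane to spectrin, had 39.2, 57.5 and 108 CPM in the lowest, median and highest control and 183, 234 and 248 in the anemic mice, without overlap (log2 fold 1.56 ± 0.25, adjusted p = 0.0002). Epb42, protein 4.2 of the same complex, had a log2 fold of 1.02 ± 0.19 (adjusted p = 0.0013), Mpp1, the palmitoylated p55 protein, of 0.85 ± 0.16 (adjusted p = 0.00098), and Slc4a1, the band 3 anion exchanger, of 0.84 (adjusted p = 0.0024). Cd24a (0.71 ± 0.14, adjusted p = 0.0015) passed with TMM scaling but not on red cell genes, where its log2 fold was 0.21.

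Of the mitophagy and autophagy genes 7 of 20 were higher and 0 lower, and 1 of the 7 held under all 3 scalings, while scaled on red cell genes 1 gene was higher and 1 lower. The gene that held was Foxo3, also the single called gene among 12 erythroid transcription factors, with 0, 136 and 165 CPM in the lowest, median and highest control and 288, 372 and 453 in the anemic mice (log2 fold 1.52 ± 0.24, adjusted p = 0.00017). Tax1bp1, an autophagy receptor, had a log2 fold of 0.89 ± 0.21 (adjusted p = 0.0075) and Gabarapl2 of 0.62 ± 0.15 (adjusted p = 0.0092). Ubiquitin and remodelling genes were higher in 6 and lower in 0 of 28. Of these 6, 1 held under all 3 scalings, and scaled on red cell genes 1 gene of the list was higher and 2 lower. Red cell genes made up 4 of the 20 mitophagy and 9 of the 28 ubiquitin genes. With TMM scaling 6.52% of all 3929 tested genes and 61 of all 200 red cell genes were called higher. Ube2o, the ligase that clears ribosomes from reticulocytes, and Mkrn1 had log2 folds of 0.76 ± 0.17 (adjusted p = 0.0057) and 0.59 ± 0.13 (adjusted p = 0.0062).

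Antioxidant and gas exchange genes were higher in 7 and lower in 1 of 22, and 4 rose under all 3 scalings, while scaled on red cell genes 4 were higher and 2 lower. Red cell genes made up 9 of these 22. With TMM scaling 6.52% of all tested genes and 61 of all 200 red cell genes were called higher. Gclm, the modifier subunit of the enzyme that begins glutathione synthesis, had 2577, 3198 and 3739 CPM in the lowest, median and highest control and 6293, 6816 and 8272 in the anemic mice (log2 fold 1.13 ± 0.14, adjusted p = 1.1e-05). The catalytic subunit Gclc went the other way (log2 fold -1.10, adjusted p = 0.022). Gpx4, which reduces lipid peroxides, rose from 139 ± 36.1 to 431 ± 69.7 CPM (log2 fold 1.54 ± 0.20, adjusted p = 1.8e-05). Car2, the carbonic anhydrase of red cells, rose from 3432 ± 578 to 7372 ± 882 (log2 fold 1.09 ± 0.14, adjusted p = 1.8e-05), and Mgst3, a microsomal glutathione transferase, from 157 ± 45.7 to 438 ± 134 (log2 fold 1.41 ± 0.24, adjusted p = 0.00048). Gclm and Car2 had more UMIs per member than per B barcode in all 12 mice, whereas Gpx4 was below B barcodes.

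Glycolysis genes were higher in 2 and lower in 0 of 10, and in 0 and 1 when scaled on red cell genes (Pgk1, phosphoglycerate kinase, log2 fold 1.01 ± 0.27, adjusted p = 0.017, and Gapdh, 0.55 ± 0.16, adjusted p = 0.025). Erythropoietin-response genes were higher in 2 of 9: Trib3, a pseudokinase also induced by amino acid stress, with a median of 6.53 CPM in controls against 62.1 in anemic mice (log2 fold 1.81 ± 0.45, from the low control counts given above), and Bcl2l1, the survival protein BCL-XL (log2 fold 0.49 ± 0.15, adjusted p = 0.042), whose log2 fold on red cell genes was -0.01. Genes of the integrated stress response, the pathway by which low heme slows globin translation, were higher in 5 of 10, Trib3 included, with a median log2 fold of 0.86 (0.40 on red cell genes), among them the transcription factors Atf5 (0.92 ± 0.21, adjusted p = 0.0053) and Atf4 (0.90 ± 0.22, adjusted p = 0.011). No gene of the last 3 lists was called under all 3 scalings. The share called higher with TMM scaling was 6.52% over all tested genes.

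Hypoxia-response genes gave 0 calls of 6 by edgeR, DESeq2 or limma voom, with 2 at an unadjusted p under 0.05. Mif, a cytokine and target of hypoxia-inducible factor, stood nearest at 114 ± 71.6 against 228 ± 61.0 CPM (log2 fold 0.79 ± 0.29, adjusted p = 0.089), and without anemia 2 and 3 the Mif log2 fold change was 0.77 (adjusted p = 0.0153). Translation genes were higher in 3 of 20, of which 0 held under all 3 scalings (Tpt1, the translationally controlled tumour protein, log2 fold 0.85 ± 0.14, adjusted p = 0.0004). Of the genes for nuclear RNA and the cell cycle 0 of 12 were called by the same 3 tools and 1 had an unadjusted p under 0.05 (1 was lower when scaled on red cell genes), with a median log2 fold of -0.0065, and Top2a stood at 45.2 ± 14.8 against 30.0 ± 16.2 CPM. Of the 2 embryonic and θ-globin genes tested, Hbq1b was higher (log2 fold 0.73 ± 0.17, adjusted p = 0.0068, and 0.25 with adjusted p = 0.25 on red cell genes) and Hbq1a had a log2 fold of -0.42 ± 0.25 (adjusted p = 0.33).

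Interferon-response genes were higher in 4 and lower in 0 of 24, with a median log2 fold of 0.60 (0.10 on red cell genes). Red cell genes made up 6 of these 24. With TMM scaling 6.52% of all tested genes and 61 of all 200 red cell genes were called higher. Isg15, a ubiquitin-like protein induced by interferon, had 3134, 3427 and 6340 CPM in the lowest, median and highest control and 6327, 9641 and 25126 in the anemic mice (log2 fold 1.76 ± 0.27, adjusted p = 0.00016), and it held under all 3 scalings. The highest values, 25126 and 20702, were those of anemia 2 and 3, and 5 of 6 anemic mice lay above all controls. Isg15 had more UMIs per member (0.378 to 0.767 in controls, 0.752 to 3.55 in anemic mice) than per B barcode (0.019 to 0.0406 and 0.0607 to 0.162) in all 12 mice. In the lower-globin erythroid barcodes it likewise stood higher in anemic mice, at 0.444 to 2.64 UMIs per barcode in controls and 1.81 to 5.26 in anemic mice. Those ranges overlap, and the values are not adjusted for depth. Isg20, an interferon-induced exonuclease, had a log2 fold of 0.59 ± 0.14 (adjusted p = 0.0064) and Ifi27, a mitochondrial interferon-induced protein, of 1.38 ± 0.35 (adjusted p = 0.012). Rsad2, the antiviral enzyme viperin, had a log2 fold of 0.76 ± 0.20 (adjusted p = 0.019), which without anemia 2 and 3 was 0.38 (adjusted p = 0.092).

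All 8 tested genes that the study named for its erythroid cells were higher and 4 held under all 3 scalings, but 3 of the 8 had a control mean under 5 UMIs, and they were chosen on these same samples and are no independent evidence. Mt1, Mt2, Mgst3 and Alas2, described above, are among them. Slc23a1, a vitamin C transporter, had a log2 fold of 2.17 ± 0.40. Serpina3k, a serine protease inhibitor made by hepatocytes, had one of 2.17 ± 0.51 and was below B barcodes in UMIs per barcode in all anemic mice.

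Of the 25 hepatocyte genes, 9 were lower under all 3 scalings and 1 was higher under TMM, with a median log2 fold of -0.72. Scaled on red cell genes 18 were lower and 0 higher, with a median of -1.12. Cyp2e1, a cytochrome P450, stood at 316, 481 and 506 CPM in the lowest, median and highest control and at 24.8, 86.8 and 183 in the anemic mice (log2 fold -2.23 ± 0.30, adjusted p = 2.3e-05). Car3, a carbonic anhydrase of liver, had a log2 fold of -2.32 ± 0.31 (adjusted p = 1.8e-05) and Lect2, a protein secreted by hepatocytes, of -2.14 ± 0.37 (adjusted p = 0.00044). Apoa1 and Ttr, a lipoprotein and a thyroxine carrier of plasma, had log2 folds of -1.26 ± 0.29 (adjusted p = 0.006) and -1.29 ± 0.30 (adjusted p = 0.0073), while Alb, at 9494 to 13871 against 1679 to 12080 CPM, was not called (log2 fold -0.82 ± 0.32, adjusted p = 0.11).

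Not all liver genes went that way. Apoa4, an apolipoprotein of liver and gut, had 0 to 16.0 against 59.6 to 217 CPM (log2 fold 3.83 ± 0.50) and lay below B barcodes in UMIs per barcode in all anemic mice, and Apoc3, the 1 gene of the hepatocyte list called higher, had a log2 fold of 1.22 ± 0.25 (adjusted p = 0.0025). Lcn2, an iron-siderophore-binding protein of neutrophils and stressed liver, had 0 to 18.1 against 24.0 to 177 CPM (log2 fold 3.01 ± 0.79) and lay below B barcodes in all 12 mice. With Wfdc21 it made the 2 calls among 8 neutrophil genes, both with a control mean under 5 UMIs. The tested genes of B cells (5), macrophages (12), monocytes (2), NK and T cells (4), dendritic cells (2), endothelial cells (10), stellate cells (9) and platelets (2) gave 0 calls by edgeR. At an unadjusted p under 0.05 these lists held 1 macrophage, 2 monocyte and 1 stellate cell gene, and DESeq2 called 1 of the monocyte genes, Plac8, while limma voom called 0. Scaled on red cell genes, edgeR called 1 monocyte and 1 endothelial gene lower.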

How the data were processed

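Droplet libraries (10x Genomics 3′) were made from the livers of 6 control and 6 anemic mice, 1 library per mouse. The deposited matrices hold counts, the UMIs per gene and barcode, which the authors made with Cell Ranger (7.0.0 in the file headers) against mm10 and which name no cell types. The authors' own filters and integration were done in Seurat and are not in these files. Kit version and genome annotation release are stated differently or not at all in the sources used here. Filtered barcodes are likely to hold free RNA, which was not removed, and no doublet caller was run. A doublet of a red cell with a larger cell would mostly fall below the globin limit, so doublets were not assessed among members.

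Barcodes of 500 to 50000 UMIs with a mitochondrial share of 20% or less were retained, and members had at least 80% of their UMIs from 4 globins. Comparison classes needed at least 5 UMIs and 1% of the non-globin UMIs from 8 marker genes each. The members and the gene lists were chosen with earlier results of these data known. Non-globin counts were summed per mouse, without mitochondrial and ribosomal protein genes, kept at a mean of at least 5 UMIs, scaled by TMM and fitted with edgeR 4.0.16 (quasi-likelihood test, Benjamini-Hochberg adjustment, threshold 0.05) in R 4.3.3. A class needed at least 20 barcodes in a mouse. Depth per mouse was 13784 to 236886 UMIs of tested genes in control and 235774 to 648117 in anemic members. The 8 per-mouse measures were compared by a two-sided exact Mann–Whitney test in scipy 1.17.1, for which 6 against 6 mice can give no p below 0.00216. Alternatives covered the globin limit (70 and 90%), the UMI and mitochondrial limits, scaling, the filter on low counts, sex, the replicate block, each mouse left out, DESeq2 1.42.0 and limma 3.58.1 (voom with quality weights).

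Genes were named by a rule: the 15 most abundant non-globin genes, up to 10 per direction with the largest fold among called, non-overlapping genes of at least 50 CPM (200 CPM between classes), up to 4 per list with the smallest p, and the genes the study named. From these, the genes with values in the text were taken. Slc4a1, Gclc and Wfdc21 were added after their values were seen. Hbb-bh0, Ahsp and Fam132b were not analysed here. Some genes that the rule names are not reported here. Red cell genes, the scaling on them and the fits without anemia 2 and 3 were chosen after seeing the data. The fits were tested on simulated data with known folds.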

Additional observations from a re-analysis of the deposited data

Results flagged for a closer look

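Among 132 groups of 6 mice (the per-mouse measures and the named genes of the anemia comparison), 6 values lay further from their group than Dixon's 95% limit allows, and chance alone flags about 1 in 20 groups. In control 3, the library with 129 members, 3 values were lowest and apart: Gabarapl2 at 4110 CPM with the next control at 7250, Car2 at 2350 CPM with the next at 3370, and Pgk1 at 0 CPM with the next at 63.3. The TMM factor of control 3 lowers its CPM. Without TMM factors Car2 stood at 3770 CPM there, within the other controls (3570 to 3990), and Gabarapl2 at 6600, still the lowest (others 7690 to 8610). Isg15 in control 2 was highest at 6340 CPM with the next control at 3750. Lcn2 in anemia 3 was highest at 177 CPM with the next anemic mouse at 47.4, and Gapdh in anemia 5 was highest at 1320 CPM with the next at 1040.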

How the results depend on the processing

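Of the named gene results under alternatives, 1613 kept direction and call, 102 lost and 20 gained it, and 5 turned direction; the per-mouse measures gave 127, 20, 1 and 2. The cause of each change was not tested unless the setting itself tests fewer genes or barcodes. Depth limits the controls most (control 3 had 129 members), and hepatocyte RNA and sex differ between the groups. Restricting members to those with 0 UMIs of other cell types was not run, since controls had too few.

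With a globin limit of 90%, the difference was 206.5 in UMIs per member, 16.3 in non-globin UMIs per member and 0.117 percentage points in Hbb-bs percent of beta UMIs, the last reversed. Without anemia 2 and 3, Hba-a1 percent of alpha UMIs lost its call (0.502). The difference in mitochondrial percent of non-globin UMIs was then 2.98, but these mice were left out partly for their low values of that measure, so no call is drawn from it. Leaving out 1 mouse at a time gave differences of 30.9 to 43.1 in non-globin UMIs per member, -0.157 to 1.62 in mitochondrial percent of non-globin UMIs (below 0 without anemia 6), -1.07 to -0.778 in alpha percent of adult globin UMIs and 0.552 to 0.802 in Hba-a1 percent of alpha UMIs.

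Genes changed in members, 359 in the report, numbered 107 (62 higher, 45 lower) at a globin limit of 90%, 208 (154, 54) with at least 1000 UMIs per barcode, 404 (139, 265) without TMM factors, 623 (570, 53) with no filter on low counts, 207 (103, 104) at a mean of at least 50 UMIs, 51 (29, 22) among red cell genes alone, 410 (85, 325) scaled on red cell genes, 414 (273, 141) by DESeq2 and 463 (277, 186) by limma voom. Higher calls made up 71.3% of all calls with TMM, 34.4% without it and 20.7% on red cell genes. Leaving out 1 mouse gave 235 (without control 6) to 452 (without anemia 5), with 190 to 289 higher and 45 to 163 lower. Directions turned for the Tfrc log2 fold change (-0.32) and the Hbq1a log2 fold change (0.26) at a globin limit of 90%, and for the Bcl2l1 log2 fold change (-0.0090) on red cell genes.

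Genes differing from lower-globin erythroid barcodes, 2754 in the report, numbered 1564 (599 higher, 965 lower) for members of at least 90% globin and 342 (192, 150) at a mean of at least 50 UMIs. Leaving out 1 mouse gave 2345 to 2941, with 965 to 1595 higher (most without control 3) and 1047 to 1766 lower (fewest without anemia 4). The Ube2c log2 fold change, members against lower-globin erythroid barcodes, turned to -0.18 without TMM factors and -0.32 at a mean of at least 50 UMIs.

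The replicate numbers do not pair the mice: same-numbered mice had correlations of -0.0351 to 0.0935, and 1 of 6 pairs correlated best with its own number. With a replicate block, 466 genes were called (291 higher, 175 lower), and an exact sign-flip test over the pairs gave no call for the differences: 13.01 percentage points for members per kept barcodes, 388 UMIs per member, 37.0 non-globin UMIs, -0.946 for the alpha percent and 0.659 for Hba-a1 percent of alpha UMIs (adjusted p = 0.125 to 0.15). With 6 pairs that test can give no p below 0.0312, so after adjustment it had little room for a call, and the lost calls say nothing about stability.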

Other observations

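Rec114 and Adtrp, named after their values were seen, were lower in anemic members under all 3 scalings and had at least as many UMIs per member as per B barcode. Rec114, known as a protein of meiotic recombination, stood at 641 ± 124 CPM in controls and 312 ± 24.8 in anemic mice (SD, n = 6 each, log2 fold -1.07 ± 0.16, edgeR adjusted p = 0.00015), without overlap of the groups. Adtrp, an androgen-dependent regulator of tissue factor pathway inhibitor, stood at 74.2 ± 56.6 and 21.4 ± 10.5 CPM (log2 fold -1.57 ± 0.44, adjusted p = 0.025), with overlap.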
